A study of Mus musculus with 12 samples.

Results

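The 79 genes described here encode proteins of the cytoplasmic ribosome. They were taken by symbol from the deposited CPM values (counts per gene, scaled so that libraries of any depth compare): names made of Rpl or Rps and a number, plus Rplp0, Rplp1, Rplp2 and Rpsa, without kinase genes (Rps6k) and pseudogene names, with 1 CPM or more on average. Of 32494 genes listed, 85 rows matched the symbols and 79 passed the minimum, 32 of the small subunit and 47 of the large subunit, among 15359 genes tested. GENCODE M21 lists 78 of them as protein coding, and Rps4l as a transcribed processed pseudogene.

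The libraries came from messenger RNA of the hypothalamus of 12 male mice, 1 library per mouse, taken 5 weeks after tamoxifen, with an age of 8 weeks in the growth protocol. All 12 mice carried floxed Smc3 (the gene of a core subunit of cohesin, the ring that holds chromatin loops) and received tamoxifen. The 7 mice labelled WT lacked Camk2a-cre/ERT2, and the 5 labelled cKO carried it. The transgene is driven by the Camk2a promoter, active in excitatory neurons of the forebrain, and its recombinase needs tamoxifen, so most cell types of the dissected tissue are outside its reach, and the sample titles also hold the word control in both groups. In bulk tissue, fewer cells of a type and less RNA per cell cannot be told apart.

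Smc3 itself went against the labels. It was at 76.8 CPM (lowest), 83.0 (median) and 85.7 (highest) in the libraries labelled WT, and at 144, 132, 116, 126 and 136 CPM in cKO 8, 9, 12, 13 and 14. The ranges did not overlap, and the difference was 0.67 ± 0.049 (log2, SE; limma adjusted p = 3.1e-05) towards the libraries labelled cKO. The part of the gene that recombination removes was not examined separately, so each direction is a direction between labels. Recovered depth was 17126005 to 24010001 reads in 11 libraries and 68744112 in WT 1. Of the hypothalamic markers, 12 of 13 passed the minimum, and Agrp was below it.

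A ribosome reads messenger RNA into protein with a small subunit, which holds the messenger, and a large subunit, which joins the amino acids. Nearly all of its proteins are needed in equal number, and their messengers are short, abundant and begin with a run of pyrimidines, the terminal oligopyrimidine (TOP) motif, through which mTOR and LARP1 set their translation. In neurons these messengers are found in the cell body and also in axons and dendrites.

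The start of transcription is where the TOP motif lies, and RefSeq promoters (build GRCm38.p6) were found for 59 of the 79 members. The windows printed here run from 30 bases before to 30 bases from the annotated start, and capitals mark the longest run of C and T on the gene's strand. The first 3 belong to the members with the largest rises in the libraries labelled cKO, and Rpl41 is shown as a member that rose without a long run in this window.
Rpl22l1, chr3:28805478-28805537, plus strand: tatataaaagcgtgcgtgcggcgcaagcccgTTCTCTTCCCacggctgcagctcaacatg
Rpl15, chr14:18270957-18271016, minus strand: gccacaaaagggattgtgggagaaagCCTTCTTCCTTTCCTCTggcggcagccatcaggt
Rps12, chr10:23787180-23787239, minus strand: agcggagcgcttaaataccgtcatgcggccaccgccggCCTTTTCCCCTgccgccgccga
Rpl41, chr10:128549139-128549198, minus strand: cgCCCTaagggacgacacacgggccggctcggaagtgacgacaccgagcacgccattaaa

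The run was 10 bases in Rpl22l1, 17 in Rpl15, 11 in Rps12 and 4 in Rpl41. Counted from the annotated start, it began at position 2 in Rpl22l1, at -4 in Rpl15, at 9 in Rps12 and at -28 in Rpl41. A run of at least 8 bases of C and T on the gene's strand was in this window in 30 of 59 members (50.8%), against 22.8% of all 27025 promoters in the table. It was in 6 of the 8 members that rose, as were the Ets core and the GC box given next. The letters CCGGAAG, the core that Ets family factors such as Gabpa bind, were on either strand of the 300 bases around the start in 24 of 59 members (40.7%), against 9.12% of all promoters and 16.2% of those of tested genes. Read on the other strand they begin with CTTCC, so they can overlap a pyrimidine run. GGGCGG, the GC box of Sp1, was in 37 of 59 (62.7%) against 62.0% for tested genes, and TATAAA, the TATA box, in 6 of 59 (10.2%) against 7.09%. CCAAT was in 19 of 59 (32.2%) against 38.2%, and AAGATGGC, the core of YY1, in 5 of 59 (8.47%) against 4.3%. Of the 8 members that rose, TATAAA was in 1, CCAAT in 2 and AAGATGGC in 0. A match is a description of these letters, and annotated starts vary by several bases between transcripts.

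Levels between members were compared per length, as mean CPM over the 12 libraries per kilobase of 1 annotated transcript. The median member stood at 111 CPM per kb, 118 in the small subunit and 111 in the large, and the middle 50% of members spanned a ratio of 2.08. Per kilobase of transcript the highest were Rplp1, a stalk protein that helps to recruit translation factors, at 467 CPM per kb, Rps15 at 446, Rps21 at 384 and Rpl8 at 334. Rplp1 and Rps15 lay close together, and Rplp1 had an SD of 11.2 around 223.6 CPM (n = 7) in the group labelled WT. Both were measured in the same libraries, so that spread does not decide their order. The lowest were Rpl7l1 at 19.4, Rps27l at 19.9, Rps20 at 23.4 and Rps4l at 23.9 CPM per kb, so that highest and lowest differed 24.1-fold on this scale. Rpl7l1 and Rps27l are diverged paralogs of Rpl7 and Rps27. The order depends on the length used. Per kilobase of coding sequence Rpl41 was highest at 1502, above Rplp1 at 681, and Rps27l was lowest at 39.4, below Rpl7l1 at 68.4. Rps20, whose annotated transcript is 3706 bases long, then stood at 243, above the median of 207. Recovered reads per member and library ran from 171 (Rps27l) to 29459 (Rpl4).

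**Figure D1:**
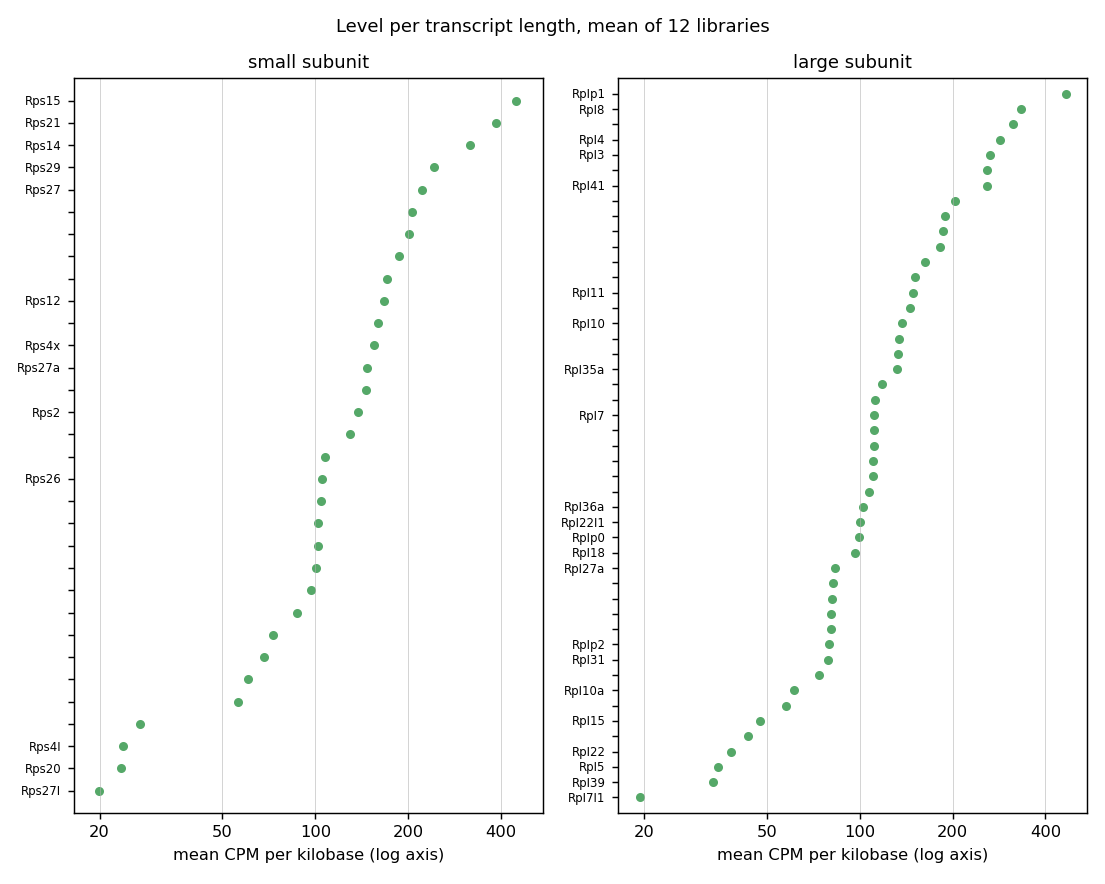
Mean CPM per kilobase of transcript (log axis, mean of 12 libraries) for the 32 small subunit members (left) and the 47 large subunit members (right), each ordered by level, with names at the members described in the text. Most members lie near 100, with Rplp1 (467) and Rps15 (446) highest and Rpl7l1 (19.4) and Rps27l (19.9) lowest.

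The core subunit Rpl28 was not among the members. It was at 12 to 46 reads per library (mean 0.83 CPM), below the least abundant member. In GENCODE M21, Rpl28 overlaps Ube2s on the other strand, which stood at 17.5 CPM. Rows under the minimum also included Rpl3l, Rpl32l, Rpl39l and Rpl6l. Among the members, 26 overlap another annotated gene, 22 of them on the opposite strand, and the strand setting of the counting is not given in the sources used here. Members also have many processed pseudogenes with near-identical sequence, so how shared reads were assigned makes their levels uncertain.

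Ribosomal protein messengers were compared between the libraries labelled cKO and WT. Of the 79 members, 8 rose and 0 fell past an adjusted p of 0.05 (limma on log2(CPM + 1), Benjamini-Hochberg over all tested genes). Over all tested genes 6.54% rose and 7.6% fell, 14.1% in either direction, so the 8 rises (10.1% of members) stand near the background. At an unadjusted p under 0.05, 22 members were higher (27.8%) and 0 lower, against 16.1% higher over all tested genes. The log2 fold change was above 0 in 76 of 79 members, against 52.5% of all tested genes, with a median of 0.085 (1.06-fold) against 0.0092. The small subunit had a median of 0.094 with 3 of 32 members called, and the large subunit 0.073 with 5 of 47. Only Rpl10a (-0.06), Rpl18 (-0.03) and Rps2 (-0.01), a set singled out after its values were seen, lay below 0 on this scale, none past the threshold. Leaving out single libraries moved the number of members called between 2 and 11, and the share of all tested genes called higher moved too. It was 3 members without WT 1 (against 3.21% of all tested genes), WT 4 (4.88%), WT 11 (4.37%), WT 15 (5.89%) or cKO 9 (4.4%), and 5 without cKO 8 (4.85%). It was 2 without cKO 13 (4.41%) or cKO 14 (4.13%), and 6 without WT 6 (4.94%) or WT 7 (5.12%). Without WT 5 it was 11 (6.76%) and without cKO 12 it was 9 (6.02%).

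**Figure D2:**
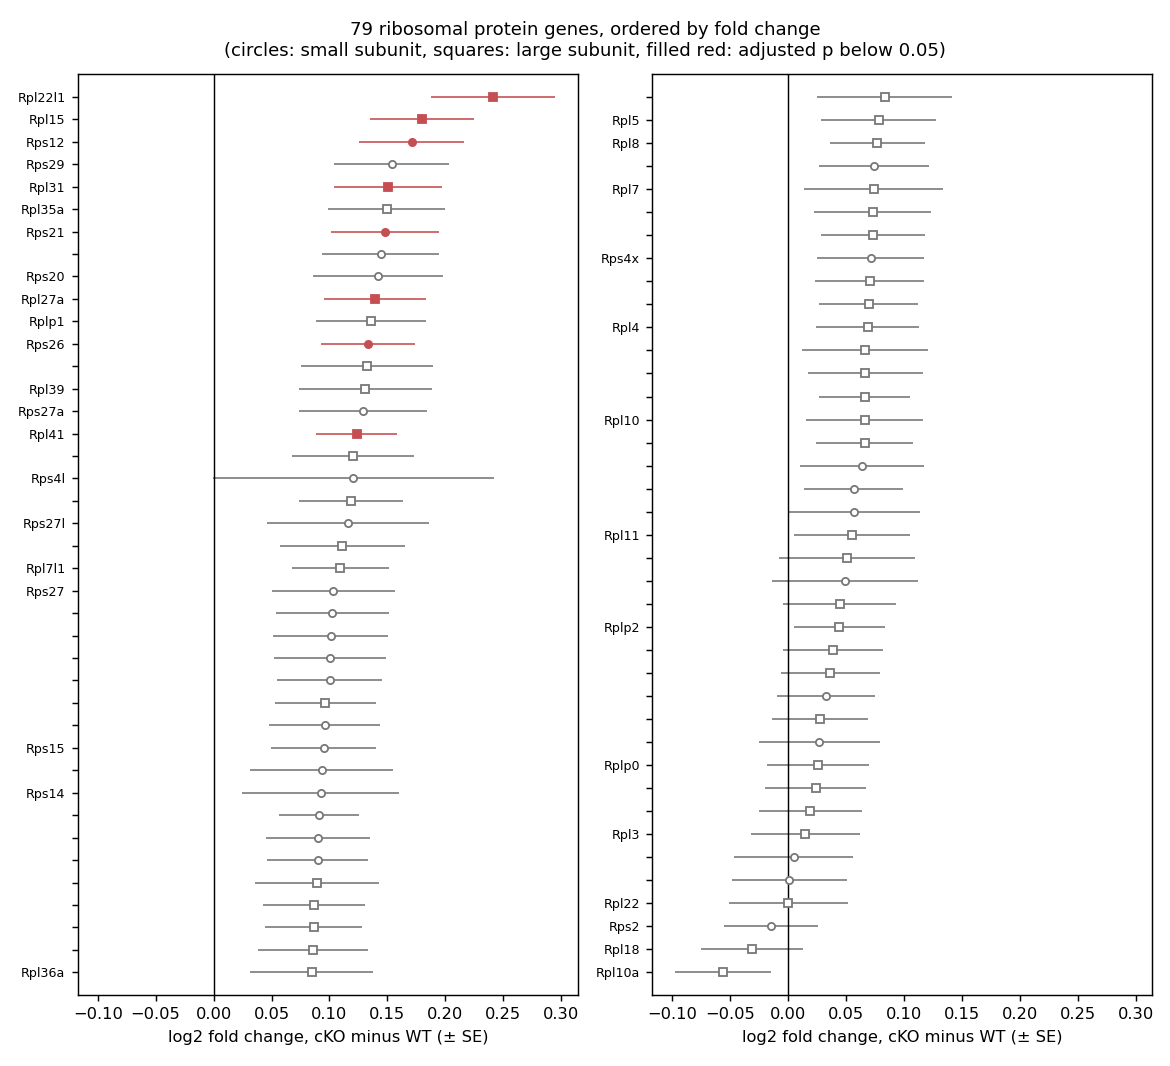
Log2 fold change of each of the 79 members, libraries labelled cKO (n = 5) minus WT (n = 7), with its limma standard error as a bar; circles are small and squares large subunit members, with names at those described in the text. The 8 members past the threshold (filled red) run from 0.12 (Rpl41) to 0.24 (Rpl22l1), and 3 members lie below 0.

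The largest rise was in Rpl22l1, a paralog of the RNA-binding large subunit protein Rpl22. Rpl22l1 was at 46.0 CPM (lowest), 51.0 (median) and 56.8 (highest) in the 7 libraries labelled WT, and at 59.6, 55.9, 58.5, 65.5 and 64.7 CPM in cKO 8, 9, 12, 13 and 14. The groups overlapped only in that cKO 9 lay below WT 15. The difference was 0.24 ± 0.054 (log2, SE; limma adjusted p = 0.0134). It was 0.21 without cKO 13 (limma adjusted p = 0.0309), and the authors' deposited table has it at 0.25 (log2) with an FDR of 0.0124. The call ended after a correction for GC content and transcript length, which gave 0.13 (limma adjusted p = 0.0813), and with a score of thalamic markers as a covariate, which gave 0.20 (limma adjusted p = 0.117).

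Rpl15, a large subunit protein in which mutations can cause Diamond-Blackfan anaemia, was next. It was at 84.3 CPM (lowest), 86.1 (median) and 90.9 (highest) in the libraries labelled WT, and at 95.8, 99.2, 88.8, 109 and 99.9 CPM in cKO 8, 9, 12, 13 and 14. All libraries labelled cKO but cKO 12 lay above every library labelled WT. The difference was 0.18 ± 0.045 (log2, SE; limma adjusted p = 0.0209). The call ended after the correction for GC content and length, which gave 0.10 (limma adjusted p = 0.0591), and with a score of neuronal markers as a covariate, which gave 0.13 (limma adjusted p = 0.156). The authors' deposited table gave Rpl15 a log2 fold change of 0.18 with an FDR of 0.0434, and Rpl15 and Rpl22l1 were the 2 members with an FDR under 0.05 there, both higher, against 1.63% of its genes that were higher. Rpl15 overlaps Nkiras1 (93.0 CPM) on the other strand.

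Rps12, a protein of the beak of the small subunit, was the 1 member whose groups did not overlap. It was at 86.8 CPM (lowest), 93.4 (median) and 97.6 (highest) in the libraries labelled WT, and at 100.1, 101.4, 98.6, 114 and 107 CPM in cKO 8, 9, 12, 13 and 14. Over all tested genes, 3.52% had all libraries labelled cKO above all labelled WT and 3.2% had them below. The difference was 0.17 ± 0.045 (log2, SE; limma adjusted p = 0.026), and 0.14 without cKO 13 (limma adjusted p = 0.0541). Leaving out cKO 14 also ended the call of Rps12 (limma adjusted p = 0.0603). With the thalamic score as a covariate the difference was 0.17 (limma adjusted p = 0.118), and with the neuronal score 0.18 (limma adjusted p = 0.0789). Both covariate fits lost the call while the difference stayed about as large.

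Rpl41, which makes the shortest protein of the ribosome, had the tightest spread of the 8. It was at 103 CPM (lowest), 108 (median) and 114 (highest) in the libraries labelled WT, and at 117, 119, 114, 120 and 123 CPM in cKO 8, 9, 12, 13 and 14. Here cKO 13 was not the highest library, and cKO 12 alone lay within the range labelled WT. The difference was 0.12 ± 0.035 (log2, SE; limma adjusted p = 0.0323), and the call was lost in 8 of the 12 fits that left out a mouse (WT 1, 4, 11 or 15, or cKO 8, 9, 13 or 14), with 0.12 and a limma adjusted p of 0.0568 without cKO 13. Quantile normalization also ended the call (0.11, limma adjusted p = 0.057). The thalamic score (0.16, limma adjusted p = 0.0555) and the neuronal score (0.13, limma adjusted p = 0.0816) as covariates ended it too. With either score the difference was no smaller than in the main fit.

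The other 4 that rose were Rpl31 and Rpl27a of the large subunit and Rps21 and Rps26 of the small subunit, where Rps26 lines the channel through which the messenger leaves. Their log2 fold changes were 0.15, 0.14, 0.15 and 0.13, and their limma adjusted p-values lay just under the threshold, from 0.0439 (Rps26) to 0.0499 (Rps21). The groups overlapped in each. Just outside the threshold were Rps29 (0.15, adjusted p = 0.0523), Rpl35a (0.15, adjusted p = 0.0634) and Rplp1 (0.14, adjusted p = 0.0698), with the same limma fit. Of the 12 fits that left out a mouse, 9 ended the call of Rpl31, 9 that of Rps21, 10 that of Rps26 and 11 that of Rpl27a. Without WT 1 all 4 lost the call at 0.15 (Rpl31), 0.15 (Rps21), 0.13 (Rps26) and 0.14 (Rpl27a), about as large as in the main fit. Without cKO 13, which also ended all 4 calls, they were at 0.12, 0.11, 0.12 and 0.10 in the same order. After the correction for GC content and length, Rps21 kept the call, while Rpl31 (0.07, limma adjusted p = 0.211), Rpl27a (0.08, 0.0988) and Rps26 (0.07, 0.159) lost it.

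**Figure D3:**
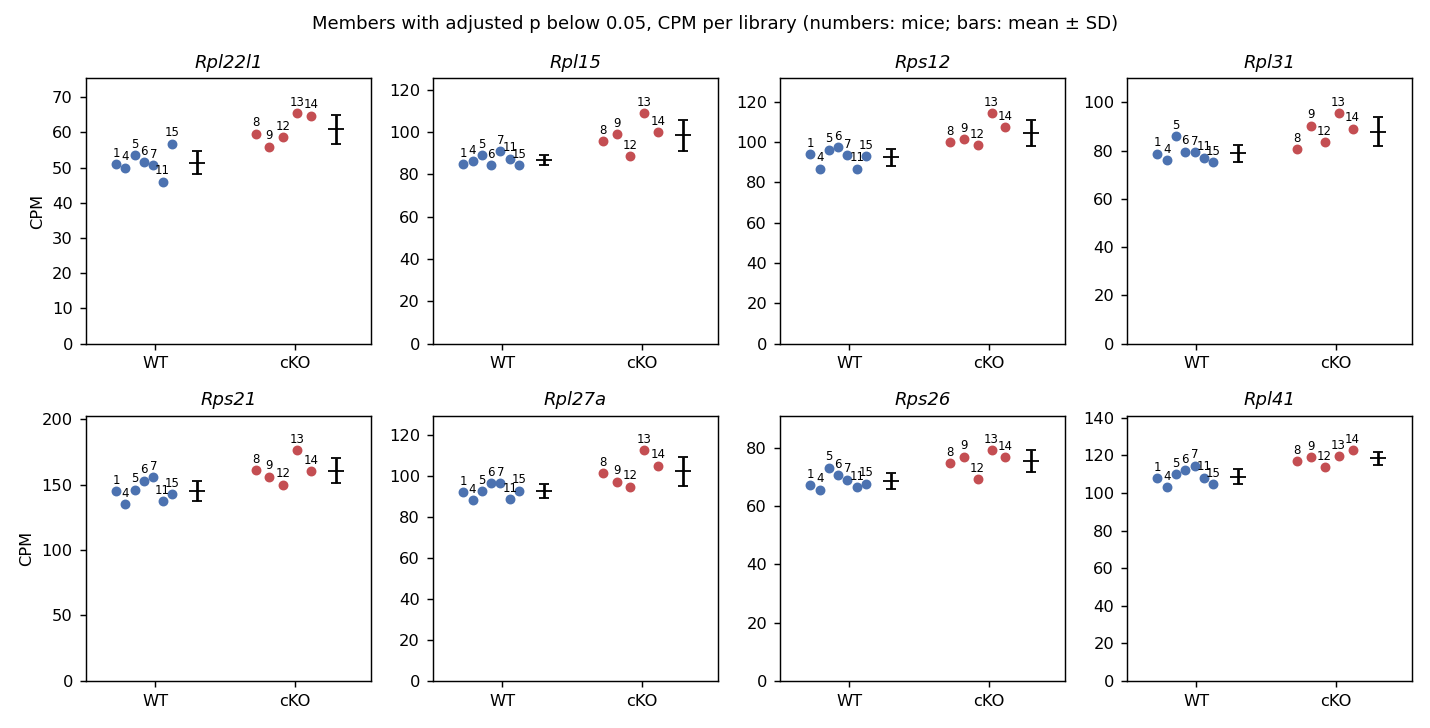
CPM per library of the 8 members past the threshold, with the mean and SD of each group as a bar; numbers beside the points are mice. Rps12 is the member whose groups do not overlap (highest library labelled WT 97.6, lowest labelled cKO 98.6), and cKO 13 is the highest library in 7 of the 8 panels.

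Summed over the 79 members, the level was 8446 to 9295 CPM in the libraries labelled WT (mean 8908 ± 334, SD, n = 7). It was 9038, 9365, 8944, 10373 and 9336 CPM in cKO 8, 9, 12, 13 and 14 (mean 9411 ± 567.8, SD, n = 5). The ratio of means was 1.06, and the groups overlapped, with 3 of the 5 libraries labelled cKO above the highest labelled WT. Without cKO 13 the ratio was 1.03. Members took 0.852% to 1.03% of all CPM.

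A single library carried much of the spread. cKO 13 was the highest of the 12 libraries for 68 of 79 members, 78 were above their WT mean in it, and its median deviation from that mean was 0.23 on the log2 scale. In the other 4 libraries labelled cKO that deviation was 0.017 (cKO 12), 0.028 (cKO 8), 0.066 (cKO 14) and 0.072 (cKO 9), and in WT 5 and WT 7 it was 0.059 and 0.058. WT 11 was the lowest library for 35 members and WT 4 for 25. Without cKO 13, 2 of 79 members were called (Rpl15 and Rpl22l1), against 4.41% of all tested genes called higher. The members' median was then 0.048, against 0.0059 over all tested genes, and 67 members were above 0.

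Members moved together between mice of a group. The mean correlation of log2(CPM + 1) between pairs of members, after taking out the group means, was 0.623 over 12 libraries, and 0.462 without cKO 13. It was 0.0051 over pairs of all tested genes, 0.689 for oxidative phosphorylation subunits, 0.413 for proteasome subunits and 0.234 for mitochondrial ribosomal proteins, all from the same libraries and so sharing their depth and RNA quality. The first component held 60.7% of the members' variance within groups. Against the mean of the other members, 64 of 79 correlated above 0.7, with Rps27a at 0.978. Both the component and these correlations include cKO 13, and neither was examined without it. Its score on the component was 1.27, and the next in size was WT 11 at -0.66. The pseudogene Rps4l (-0.042), Rps27l (0.31) and Rpl7l1 (0.396) followed the others least. Rps4l also had the largest spread within groups, an SD of 0.233 on the log2 scale against 0.126 for the next, Rps14, a small subunit protein, with 21.7 ± 3.8 CPM (SD, n = 7) under the label WT and 23.6 ± 3.93 (SD, n = 5) under cKO.

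Diverged paralogs can take the place of a core protein in the ribosome, so the ratio of paralog to partner was compared within each library for 5 pairs. Two-sided exact permutation tests were used, adjusted over the 5. Rps4l is annotated as a transcribed processed pseudogene without a coding sequence, so its ratio to Rps4x compares transcripts only. The ratio of Rpl22l1 to Rpl22 was 0.656 ± 0.0569 (SD, n = 7) under the label WT and 0.777 ± 0.0628 (SD, n = 5) under cKO, a log2 difference of 0.25 (exact p = 0.00758, adjusted p = 0.0379). The 5 libraries labelled cKO were at 0.827, 0.726, 0.754, 0.72 and 0.86, and WT 15, at 0.758, lay among them. Rpl22 alone had 78.4 ± 2.79 CPM (SD, n = 7) under WT and 78.6 ± 7.25 (SD, n = 5) under cKO. After correction for GC content and length the difference in the ratio was 0.15 (exact p = 0.0846, adjusted p = 0.141).

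The other pairs did not pass the test. The ratio of Rps27l, a p53 target, to Rps27 was 0.129 ± 0.0092 (SD, n = 7) and 0.131 ± 0.0141 (SD, n = 5), with an exact p of 0.773. Rpl7l1 to Rpl7 had a log2 difference of 0.04 (exact p = 0.414), Rps4l to Rps4x 0.05 (exact p = 0.715) and Rpl36al to Rpl36a 0.07 (exact p = 0.0922). After the correction for GC content and length, Rpl7l1 to Rpl7 differed by 0.11 (exact p = 0.00379, adjusted p = 0.0189) and Rpl36al to Rpl36a by 0.10 (exact p = 0.0202, adjusted p = 0.0505). The corrected exact p was 0.525 for Rps27l to Rps27 and 0.375 for Rps4l to Rps4x. Rpl39l and Rpl3l, partners of the exit tunnel protein Rpl39 and of Rpl3, were under the minimum. Rpl39 (0.13, adjusted p = 0.138), Rpl3 (0.01, adjusted p = 0.862), Rpl10 (0.07, adjusted p = 0.398), Rps4x (0.07, adjusted p = 0.318) and Rpl36a (0.08, adjusted p = 0.3), given as limma log2 fold changes, were not called.

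The stalk proteins recruit translation factors to the ribosome. Of these, Rplp0 was at 0.03 ± 0.044 (log2, SE; limma adjusted p = 0.732), Rplp1 at 0.14 ± 0.047 (adjusted p = 0.0698) and Rplp2 at 0.04 ± 0.039 (adjusted p = 0.469). Rpl5 and Rpl11, which bind the 5S RNA and can hold back the p53 regulator Mdm2, were at 0.08 and 0.06, with limma adjusted p-values of 0.306 and 0.484. Of the 4 X-linked members, 0 were called by limma, edgeR or DESeq2. In limma 1 of them had an unadjusted p under 0.05, against 31.1% of all tested genes in either direction. Ribosomal proteins outside the symbol rule included Rpl36al, which rose from 31.8 ± 1.23 to 35.5 ± 2.32 CPM (SD; 0.15, limma adjusted p = 0.044), and Rack1 (0.10) and Fau (0.05), which were not called. The call of Rpl36al was lost after the correction for GC content and length (0.11, limma adjusted p = 0.092) and without cKO 13 (0.12, limma adjusted p = 0.0945), among 14 of 24 alternatives.

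Other large complexes with many short messengers were counted beside the 6.54% of all tested genes that rose. Of 74 oxidative phosphorylation subunits tested, 19 rose (25.7%) and 1, Cox6a2, fell, with a median log2 fold change of 0.167. The largest in size were Cox6a2 (-0.66), Ndufa1 (0.26) and Ndufb2 (0.25). Of 78 mitochondrial ribosomal proteins, which build the separate ribosome of mitochondria, 7 rose (8.97%) and 0 fell, median 0.097, led by Mrpl46 (0.28), Mrps23 (0.27) and Mrpl36 (0.26). Of 37 proteasome subunits 5 rose (13.5%) and 0 fell, median 0.105, led by Psmd6 (0.19), Psmc2 (0.16) and Psma6 (0.15). After the correction for GC content and length, against 9.19% of all tested genes, 20 oxidative phosphorylation subunits (median 0.128), 7 mitochondrial ribosomal proteins (median 0.077) and 7 proteasome subunits (median 0.07) were called higher, while Mrpl36 (0.22, limma adjusted p = 0.0624) and Psma6 (0.07, 0.0992) lost the call. All 3 lists and the ribosomal proteins were highest in cKO 13, and without it the difference between the means of the groups, on the log2 scale, was 0.049 for ribosomal proteins, 0.097 for oxidative phosphorylation, 0.072 for mitochondrial ribosomal proteins and 0.062 for the proteasome.

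**Figure D4:**
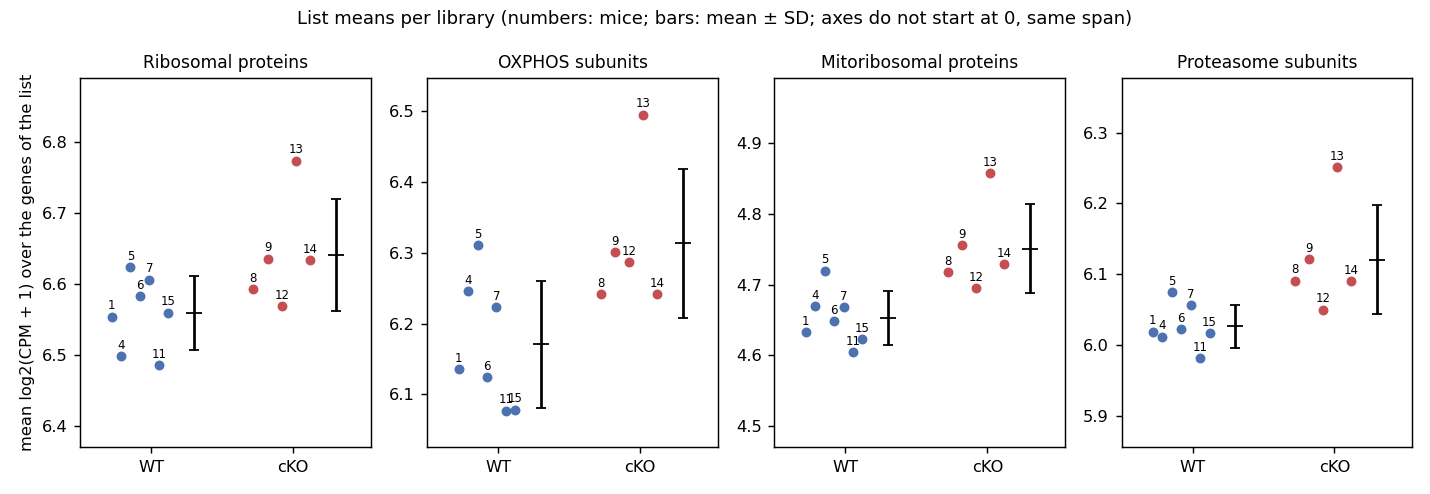
Mean log2(CPM + 1) of 4 gene lists in each library (numbers are mice), with the mean and SD of each group as a bar; the axes share a span and do not start at 0. In all 4 panels cKO 13 is the highest library, and the groups overlap in each.

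Lists of genes that make or control ribosomes were counted in the same fit, beside 6.54% of all tested genes that rose and 7.6% that fell. Of 61 ribosome biogenesis genes, 7 rose (11.5%) and 2 fell (3.28%), with a median of 0.038. The largest were Nvl (-0.28), an ATPase of large subunit assembly, Rpf2 (0.22), which loads the 5S particle, and the helicase gene Ddx49 (-0.20). Of 15 genes of the RNA polymerase I machinery, which transcribes ribosomal RNA, 0 rose and 1 fell (6.67%), Taf1a (-0.18). Among 29 mTOR, LARP1 and Myc regulators 0 rose and 3 fell (10.3%): Mycn from 7.52 ± 1.48 to 4.03 ± 1.04 CPM, Rps6kb2 (-0.45), a kinase of ribosomal protein S6, and Tsc2 (-0.19), an inhibitor of mTOR. Of 17 translation factors of the TOP class, whose messengers share the pyrimidine start, 2 rose (11.8%), Eef1b2 (0.18) and Eif3e (0.15), and 0 fell, median 0.045. Among 20 genes of the integrated stress response and p53 targets, 0 rose and 3 fell (15%), Atf3 (-0.35), Eif2ak4 (-0.19) and Trp53 (-0.15). After the correction for GC content and length, Eef1b2 (0.12, limma adjusted p = 0.0551), Eif3e (0.05, 0.339), Rpf2 (0.11, 0.111), Ddx49 (-0.16, 0.0572) and Eif2ak4 (-0.13, 0.096) lost the call, and 0 of the 17 factors of the TOP class was called. Of 13 snoRNA host genes that nonsense-mediated decay degrades, 0 were called by limma or edgeR and 1 by DESeq2. Over all tested genes DESeq2 called 7.96% higher and 9.93% lower. In limma 3 of the 13 had an unadjusted p under 0.05, against 31.1% of all tested genes in either direction.

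Transcript length moved with these values. The members' annotated transcripts had a median of 833 bases (345 to 5179), against 3.0 kb for tested genes with an annotation, and 55 of 79 were under 1 kb. Among the other 912 tested genes under 1 kb, the median log2 fold change was 0.063, 65.4% were above 0, and 9.98% rose. In bins of length, the 20 members of 0.5 to 0.75 kb had a median of 0.09 against 0.069 for other genes of that length, and the 24 members of 0.75 to 1 kb had 0.073 against 0.063. The 11 members under 0.5 kb had 0.103 against 0.025, and the 13 of 1 to 1.5 kb 0.07 against 0.048. The 6 of 1.5 to 2 kb had 0.081 against 0.038, and the 3 of 2 to 3 kb 0.078 against 0.02. The 1 member of 3 to 5 kb, Rps20, was at 0.142 against 0.006, and the 1 of over 5 kb, Rps15a, at 0.049 against -0.028. Their coding sequences have only 357 and 390 bases, so their place in these bins rests on the annotated transcript chosen. Which transcript the tissue made was not examined, and this limits the bins, the rank correlations of the members with length and the correction. Over all tested genes with an annotation the rank correlation of fold change with length was -0.175, and with GC content -0.218, as a description across genes. Among the members it was -0.276 with length and -0.254 with GC content. After the correction for GC content and length, the members were at -0.301 with length and 0.265 with GC content. All tested genes with an annotation were then at 0.0014 and 0.0084.

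A correction of each library for GC content and length brought the members' median from 0.085 to 0.044, against 0.023 over all tested genes, and the number above 0 from 76 to 64. It called 4 of 79 members, Rpl41, Rps12, Rps21 and Rps29, against 9.19% of all tested genes called higher. Rpl22l1 (0.13, limma adjusted p = 0.0813) and Rpl15 (0.10, limma adjusted p = 0.0591) lost the call. The mean correlation between pairs of members fell from 0.623 to 0.4. With the correction and without cKO 13 together, an alternative chosen after seeing the data, 3 members were called, against 7.75% of all tested genes called higher, and the median was 0.03.

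**Figure D5:**
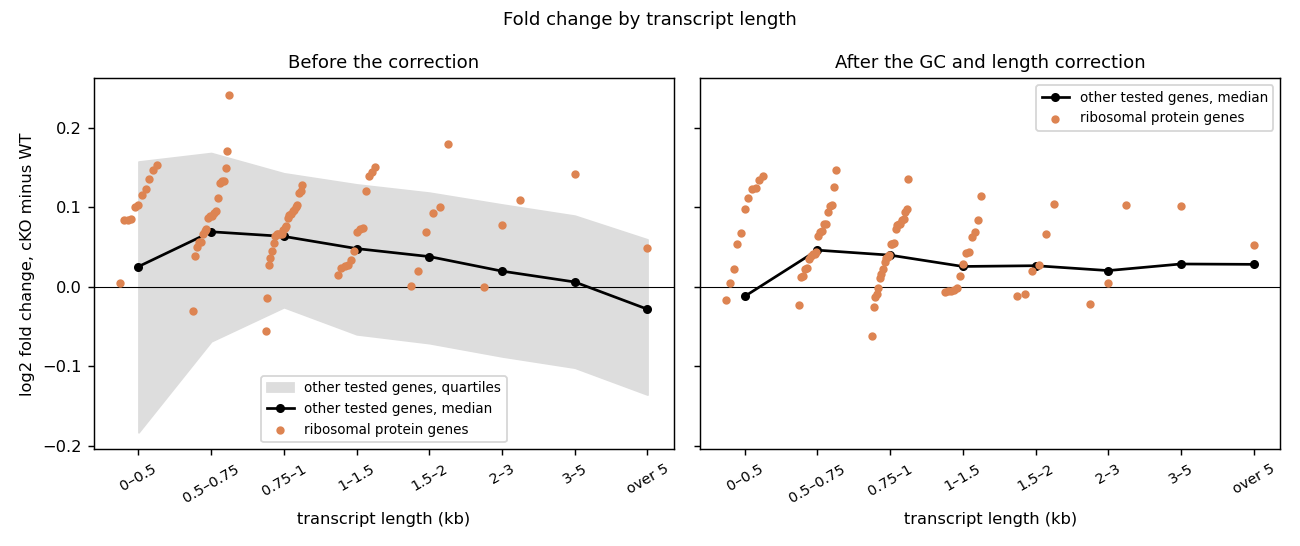
Log2 fold change (libraries labelled cKO minus WT) by transcript length in kb, before (left) and after (right) the correction of each library for GC content and length; black points are medians of the other tested genes, the grey band their quartiles (left only) and orange points the members. Before it, the median of other genes runs from 0.069 at 0.5 to 0.75 kb to -0.028 over 5 kb, and the members lie around or above it.

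The scaling and the tool moved the number of members called, while no member was called lower in any of the 24 alternatives. Centring each library on its median gene gave 13 of 79 members higher (background 8.97%), and quantile normalization 4 (6.75%). With all genes above 0 tested, 4 members were called, against 2.03% of 31802 genes. Over all tested genes, 1004 rose and 1168 fell, against 1377 and 1054 after centring and 1411 and 1016 after the correction for GC content and length. In edgeR's quasi-likelihood test on recovered reads, 5 members were called (background 5.81%) and with DESeq2 11 (7.96%). Weighting libraries by their fit (arrayWeights) called 22, against a background of 15.7%. Rpl22l1 and Rpl15 were called in 21 of the 24 alternatives each and Rps12 in 20.

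Markers of cell types moved with the groups too, and their part in the members' values was not tested beyond the covariate fits given here. In the main fit 6.54% of all tested genes rose and 7.6% fell. Of 10 neuronal markers 2 rose, Map2 (0.25) and Stmn2 (0.20), and their mean level on the log2 scale was 8.93 to 9.16 in the libraries labelled WT and 9.11 to 9.25 in those labelled cKO, highest in cKO 13. With that score as a covariate, an alternative chosen after seeing the data, 1 of 79 members was called, Rpl22l1, against 5.12% of all tested genes called higher, and the median was 0.047. Of 8 markers of thalamic neurons, which lie beside the hypothalamus, 3 fell, Prkcd (-1.44), Rora (-0.75) and Plekhg1 (-0.61), and their mean level was 5.61 to 6.74 against 4.81 to 5.86. With the thalamic score as a covariate, 1 member was called, Rpl15, against 1.63% of all tested genes, while the median was 0.096.

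Of 9 nuclear long RNAs 5 fell, against 7.6% of all tested genes, with Miat (-0.73), Snhg11 (-0.64) and Meg3 (-0.54) largest in size. The mean level of these RNAs was 8.05 to 8.40 in the libraries labelled WT and 7.58 to 7.97 in those labelled cKO. Oligodendrocyte precursor markers rose in 3 of 5, Gpr17 (0.39), Olig2 (0.27) and Pdgfra (0.14), against 6.54% of all tested genes. Of 12 hypothalamic markers 1 rose, Sim1 (0.56), which is near that share. Their median log2 fold change was 0.49, with 9 above 0 and 3 below. Their mean level spread widely, from 2.38 to 5.01 in the libraries labelled WT and from 2.95 to 5.26 in those labelled cKO. No tested marker of excitatory forebrain neurons (6), astrocytes (8), oligodendrocytes (8), microglia (9) or endothelial cells (7) was called by limma or edgeR. The same held for mural cells (6), ependymal cells and tanycytes (6), choroid plexus (3), blood (5) and pituitary (3). Of these 61, 1 was called by DESeq2, which called 7.96% of all tested genes higher and 9.93% lower. In limma 4 of the 61 had an unadjusted p under 0.05, against 31.1% of all tested genes in either direction. The mitochondrial ribosomal RNAs mt-Rnr1 and mt-Rnr2 had log2 fold changes of 0.00034 and 0.044, with limma adjusted p-values of 0.999 and 0.84.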

How the data were processed

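The authors deposited 2 tables: normalized CPM of 32494 genes in 12 libraries, and the outcome of a test per gene (log2 fold change, p-value, FDR). Per the labels' protocols, messenger RNA was isolated and made into libraries with NEBNext Ultra II chemistry. The submitters' processing notes name bcl2fastq, FastQC (0.11.9), STAR (2.7.9a), SAMtools, Subread and featureCounts. Genome build, annotation and strand setting are not given in the sources used here. In each library 100% of the deposited CPM values were whole multiples of the value of 1 read (tolerance 0.001), so whole reads were recovered, and 0 columns were left unused.

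The main test was limma (3.58.1, R 4.3.3; lmFit, eBayes with trend) on log2(CPM + 1) for genes at a mean of at least 1 CPM, without covariates, which understates changes of low genes. A p-value adjusted by Benjamini-Hochberg under 0.05 was a call. On recovered reads, edgeR (4.0.16) called 892 genes higher and 1205 lower, and DESeq2 (1.42.0) 1222 and 1525. The members, gene lists and tests were chosen with earlier results of these data known. Named were the members called, up to 10 per direction, those in the lists of paralog pairs, stalk and 5S partners, the 4 highest and 4 lowest per kilobase, the 2 with the largest spread, and the 3 largest calls of each other list. Genes named beyond it were picked with their values in view. Single ratios were compared with two-sided exact permutation tests over the 792 ways to draw 7 of 12 libraries (smallest possible p = 0.00126). Length and GC content came from 1 GENCODE M21 transcript per gene, which 14488 of 15359 tested genes (94.3%) had, and the correction used splines of 4 degrees of freedom. The fit was tested on simulated data. The labels give no batch and do not say that mice came from separate litters, so p-values measure the spread between these mice. Some genes are not reported here by name.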

Additional observations from a re-analysis of the deposited data

Results flagged for a closer look

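Within the groups of 5 or 7 mice, 64 sets of values (named members and summed levels, by group) were examined for a single library far from the others, of which chance gives about 1 in 20, or 3.2 sets, and 5 stood out. WT 5 was the highest of the 7 libraries labelled WT for Rpl31 (86.08 CPM, next 79.62), Rpl39 (23.44 CPM, next 20.13) and Rpl7 (141.4 CPM, next 127.4). cKO 13 was the highest of the 5 labelled cKO for Rplp0 (151.6 CPM, next 134.6) and Rps15 (254.1 CPM, next 230.1).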

How the results depend on the processing

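No paired analysis was possible because the groups share no mouse numbers. The count of members called, 8 (against 6.54% of all tested genes higher), became 13 with median centring (8.97%) and 22 with arrayWeights (15.7%). It was 4 with quantile normalization (6.75%), with all genes above 0 (2.03%) or with the GC and length correction (9.19%), and 5 with edgeR (5.81%). It was 1 with the thalamic (1.63%) or the neuronal score (5.12%) and 3 without cKO 13 with the correction (7.75%). Leaving out each mouse gave 2 to 11 members, against 3.21% to 6.76% of all tested genes. The count over the whole table, 2172, became 5126 with arrayWeights, 699 with the thalamic score, and 1161 to 2309 when each mouse was left out. The cause was not tested. The score of mitochondrially encoded messengers was not run, since none of the 13 was analysed here.

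Of 696 values for 29 named genes, 559 kept direction and side of the threshold, 101 lost and 9 gained a call, and 27 changed sign. The sign changes were all in genes not called. Rpl22 was at -0.00033 with quantile normalization, -0.026 with arrayWeights, -0.0039 with edgeR, -0.0063 with DESeq2, -0.022 with the correction, -0.096 with the neuronal score and -0.059 without cKO 13 with the correction. When each mouse was left out, Rpl22 ran from -0.053 to 0.0298, Rpl3 from -0.022 to 0.034 and Rplp0 from -0.013 to 0.047. Rpl3 was at -0.016 with arrayWeights, -0.0050 with the correction and -0.022 without cKO 13 with the correction. Rplp0 was at -0.0038 with arrayWeights, -0.042 with the neuronal score and -0.0064 without cKO 13 with the correction. Rpl7 was at -0.0064 with the correction, -0.0077 with the neuronal score and -0.032 without cKO 13 with the correction, where Rps4x was at -0.0022, Rpl36a at -0.0010 and Rpl5 at -0.015. Rps4l was at -0.012 with the thalamic score. The member with the fewest reads had 171 in a library.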
